A study of Homo sapiens with 5 samples.

Results

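ACP7, CD22, CD68, C2orf82 (now SNORC), DMBX1 and HMCN2 are 6 low-expressed genes, most of them known from cells other than fibroblasts, whose RNA was higher in every IMR90 library treated with an antagomir against miR-146a than in either control library. They are 6 of the 18568 gene rows analysed here. They were chosen by name for this antagomir difference, with normalized reads of all 5 libraries in view, so the difference itself is given as a description with no test. IMR90 is a line of normal human lung fibroblasts. All groups carried RASV12, a constantly active RAS protein delivered by retrovirus that drives fibroblasts into senescence, after puromycin selection at 1.5 µg/ml for 3 days. Cells were seeded on day 10 after infection and transfected 24 hours later with an antagomir, which is a chemically modified oligonucleotide that pairs with a microRNA and blocks it. The anti-miR-146a group (n = 3, columns lettered A, B and C) received the antagomir against miR-146a, and the control group (n = 2, lettered B and C) a control antagomir. The antagomir comparison asks which transcripts differ when miR-146a is blocked in cells made senescent by RAS.

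MicroRNAs guide Argonaute proteins to matching sites, mostly in the 3′ UTRs of messenger RNAs, and lower the stability and translation of those messages. Base pairing by the seed near the microRNA's 5′ end decides most of the targets. MiR-146a is induced by NF-κB signalling, dampens interleukin-1 and Toll-like receptor signalling and accumulates in senescent fibroblasts that secrete inflammatory factors. Many messages that a microRNA holds down directly carry a seed match. The sequences below show the guide and the single match of the kinds searched that was found among the 6 genes.

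The mature sequence is from RefSeq (GRCh38.p14, chr5:160485372-160485393, plus strand), with the seed, bases 2 to 8, in capitals.
hsa-miR-146a-5p: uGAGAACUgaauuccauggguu
The site lies in the 3′ UTR of ACP7, read from the GENCODE 29 transcript on chromosome 19, with the seed match in capitals.
ACP7 site: caggctctGTTCTCAgtgctgga

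Matches searched were AGTTCTCA, AGTTCTC and GTTCTCA, which overlap each other, on the transcript strand of the 3′ UTR only. The ACP7 match is the weaker 7-base kind, without pairing to base 8 of the microRNA. It starts at base 738 of a 3′ UTR of 1375 bases and is present in 1 of 3 coding transcripts with a 3′ UTR. No match was found in the longest annotated 3′ UTRs of CD22 (658 bases), CD68 (602 bases), C2orf82 (50 bases), DMBX1 (1732 bases) or HMCN2 (430 bases). Of 4595 tested coding genes, 20.2% held at least 1 match in their longest 3′ UTR, whose median length was 1282 bases. A match is a description of the letters and not of binding.

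Values are normalized reads, meaning the read count of a gene divided by the size factor of its library. A log2 difference is anti-miR-146a minus control of log2(value + 1), a scale on which differences of low genes come out too small, with its SE from limma fitted across 6317 genes. Those genes had at least 10 normalized reads in at least 2 libraries. Ranks, percentiles and shares below are within the 18568 rows analysed here and not over all genes of the genome. All 6 passed this filter, CD68 and DMBX1 through the anti-miR-146a libraries alone, so those 2 genes could be analysed only because they were higher there.

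DMBX1 encodes a paired-class homeobox transcription factor of the developing brain. It had 22.7, 13.7 and 21.2 normalized reads in the A, B and C anti-miR-146a libraries, against 0 and 0.933 in control libraries B and C. These are 24, 15 and 21 reads with anti-miR-146a, against 0 and 1 read in controls. The groups did not overlap, and the gene was near absence in both controls. Pooled reads were 60 with anti-miR-146a and 1 in controls, a ratio of 40.5 whose exact 95% interval for counting error ran from 6.99 to 1624. Library B held at least 4.78-fold more than control B and library A at least 7.91-fold more, taking 3 reads as the limit that a count of 0 allows in that control library. The log2 difference was 3.83 (SE 0.50), rank 1 of the tested genes. Its size depended on the pseudocount, at 5.87 with a pseudocount of 0.1 and 2.13 with a pseudocount of 5.

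HMCN2 encodes hemicentin 2, a very large extracellular matrix protein of the fibulin superfamily. It had 74.6, 79.4 and 217 normalized reads in the A, B and C anti-miR-146a libraries, against 22.0 and 26.1 in control B and C. All 3 anti-miR-146a libraries lay above both controls, and library C lay far above A and B. The means were 124 ± 81.1 with anti-miR-146a and 24.0 ± 2.95 in controls (SD, n = 3 and n = 2). Its log2 difference was 2.14 (SE 0.49).

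CD22 encodes a sialic acid binding receptor of the Siglec family that restrains B cell receptor signalling. It had 60.4, 44.7 and 82.9 normalized reads in the A, B and C anti-miR-146a libraries, against 10.5 and 14.9 in control B and C. The groups were well apart, with the lowest anti-miR-146a library 3.00 times the highest control. The means were 62.7 ± 19.2 with anti-miR-146a and 12.7 ± 3.13 in controls (SD, n = 3 and n = 2), and the log2 difference was 2.19 (SE 0.34).

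CD68 encodes a heavily glycosylated membrane protein of lysosomes and endosomes, widely used as a macrophage marker. It had 17.9, 24.6 and 20.2 normalized reads in the A, B and C anti-miR-146a libraries, against 5.73 and 9.33 in control B and C. The groups did not overlap, and the reads were few, with 66 in the 3 anti-miR-146a libraries and 16 in the controls. The pooled ratio was 2.78 with an exact 95% interval of 1.59 to 5.15 for counting error. Its log2 difference of 1.38 (SE 0.36) was the smallest of the 6 genes.

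C2orf82, now SNORC, encodes a membrane proteoglycan of cartilage. It had 79.3, 77.6 and 85.0 normalized reads in the A, B and C anti-miR-146a libraries, against 22.9 and 27.1 in control B and C. It was the gene with the least spread within groups on the log2 scale, at 80.6 ± 3.87 with anti-miR-146a and 25.0 ± 2.93 in controls (SD, n = 3 and n = 2). The log2 difference was 1.65 (SE 0.21).

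ACP7 encodes a metal-dependent phosphatase of the purple acid phosphatase family. It had 68.0, 67.5 and 95.1 normalized reads in the A, B and C anti-miR-146a libraries, against 19.1 and 28.0 in control B and C. The groups did not overlap, and library C was the highest within each group. Its log2 difference was 1.67 (SE 0.28).

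**Figure D1:**
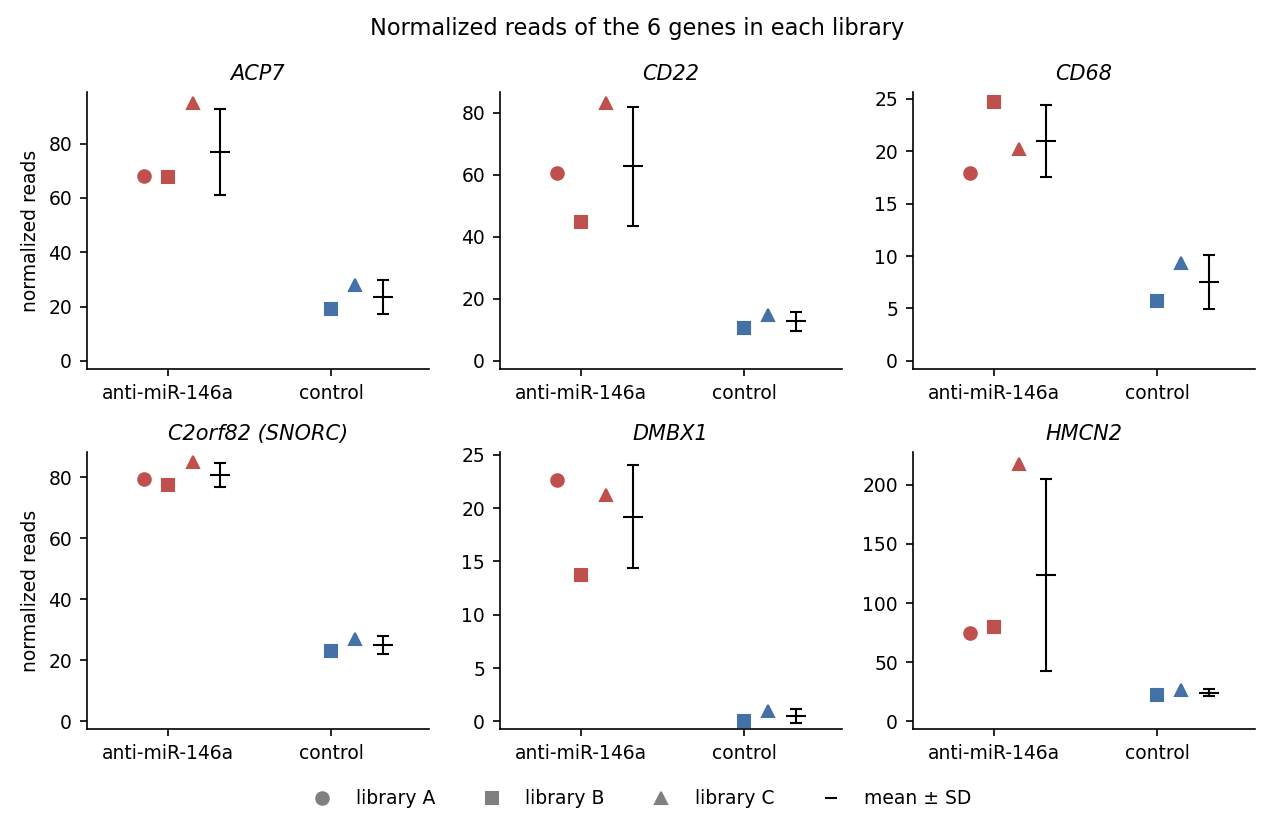
Normalized reads (y axis, linear from 0, own scale per gene) of each of the 6 genes in the 3 anti-miR-146a and 2 control libraries, with symbols for the library letter and black bars for the mean ± SD. Every anti-miR-146a library lies above both controls, and HMCN2 in library C stands at 217 against 74.6 and 79.4 in A and B.

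The fold changes in the authors' deposited table, as linear ratios of anti-miR-146a over control, were 40.7 for DMBX1, 5.14 for HMCN2, 4.92 for CD22, 3.26 for ACP7, 3.22 for C2orf82 and 2.78 for CD68. Higher values in all 3 anti-miR-146a libraries than in both controls were found for 16.5% of all tested genes. Among the 1193 tested genes with a control mean under 30, where all 6 genes lie, the share was 20.8%. Nothing about the 6 genes is read from these counts, since the choice of genes fixed their direction. In limma 0 of 6317 tested genes (0%) had an adjusted p under 0.05 for the antagomir, while 715 had an unadjusted p under 0.05. EdgeR's quasi-likelihood test on recovered reads also called 0 genes and DESeq2 called 48. With a term for the C libraries limma called 975. The median log2 difference was 1.91 over the 6 genes and 0.005 over all tested genes.

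**Figure D2:**
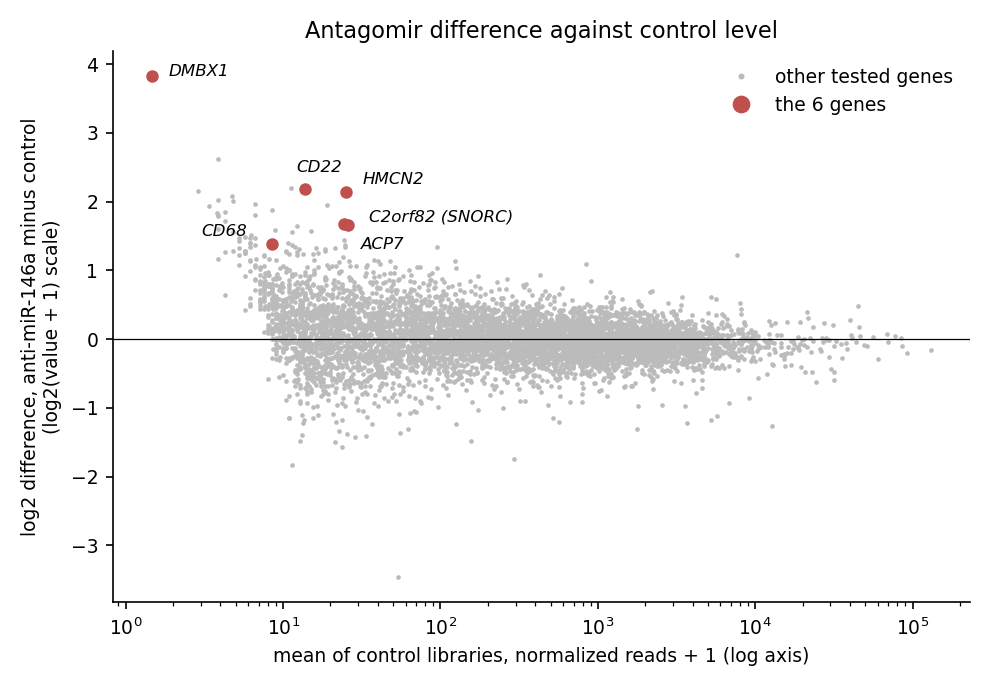
Log2 difference of anti-miR-146a minus control (y axis) against the mean of the control libraries plus 1 (x axis, log scale) for all 6317 tested genes, with the 6 genes in red. The 6 genes lie at the low end of the x axis, between control means of 0.466 and 25.0 normalized reads, and DMBX1 at 3.83 lies above every other tested gene.

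The 6 genes were not alone in this range. Of the tested genes, 38 had a log2 difference at least as large as that of CD68, 32 of them with groups that did not overlap. Of these 32, 23 were coding genes in GENCODE 29 with a control mean under 30, including the 6. By the size of the difference CD22 ranked 4, HMCN2 ranked 6, ACP7 ranked 20, C2orf82 ranked 21 and CD68 ranked 38.

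All 6 genes were low-expressed. Among 4635 tested coding genes the median control mean was 496 normalized reads, and the control means of the 6 genes lay between the lowest value and percentile 9.73. With anti-miR-146a they lay between percentile 6.84 for DMBX1 and 25.5 for HMCN2. Per kilobase of all annotated exons, the anti-miR-146a mean of ACP7 was 24.7 normalized reads per kb, against 7.58 in controls. C2orf82 had 21.8 per kb against 6.76 in controls. CD22 had 10.2 per kb with anti-miR-146a against 2.06 in controls, and CD68 had 9.56 against 3.44. The place of CD68 among the 6 genes is uncertain, since most of its exonic bases are shared with another gene. The lowest of the other 5 were DMBX1, at 6.63 per kb against 0.161 in controls, and HMCN2, at 6.08 against 1.18, whose exons span 20.4 kb. Thus with anti-miR-146a HMCN2 had the most pooled reads of the 6 genes and the lowest level per length of all its exons. Its lead in reads came mainly from library C, at 215 reads. In library A it had 79 reads, against 84 for C2orf82. In bulk RNA, fewer cells with a transcript and less of it per cell cannot be told apart.

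The letters B and C occur in both groups, which gives 2 comparisons within a letter, and library A can be set only against a control of another letter. ACP7 was 3.54-fold higher in library B than in control B (95% counting interval 2.14 to 6.12) and 3.40-fold higher in library C than in control C (2.23 to 5.31). C2orf82 gave 3.39-fold within B (2.13 to 5.57) and 3.14-fold within C (2.04 to 4.97). For both genes the 2 ratios were close. The intervals cover counting error alone, and across tested genes the libraries of the same group differed by more than that. All these ratios describe the difference for which the genes were chosen.

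CD22 was 4.26-fold higher within B (2.19 to 9.08) and 5.56-fold within C (3.23 to 10.2). CD68 was 4.30-fold higher within B (1.74 to 12.7) and 2.17-fold within C, where the interval of 0.969 to 5.19 includes no difference at this depth. DMBX1 was 22.8-fold higher within C (3.66 to 942), a ratio against 1 read. HMCN2 was 3.62-fold higher within B (2.26 to 6.00) and 8.33-fold within C (5.60 to 12.8), so its ratios differed most between letters among the 5 genes with reads in every library.

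**Figure D3:**
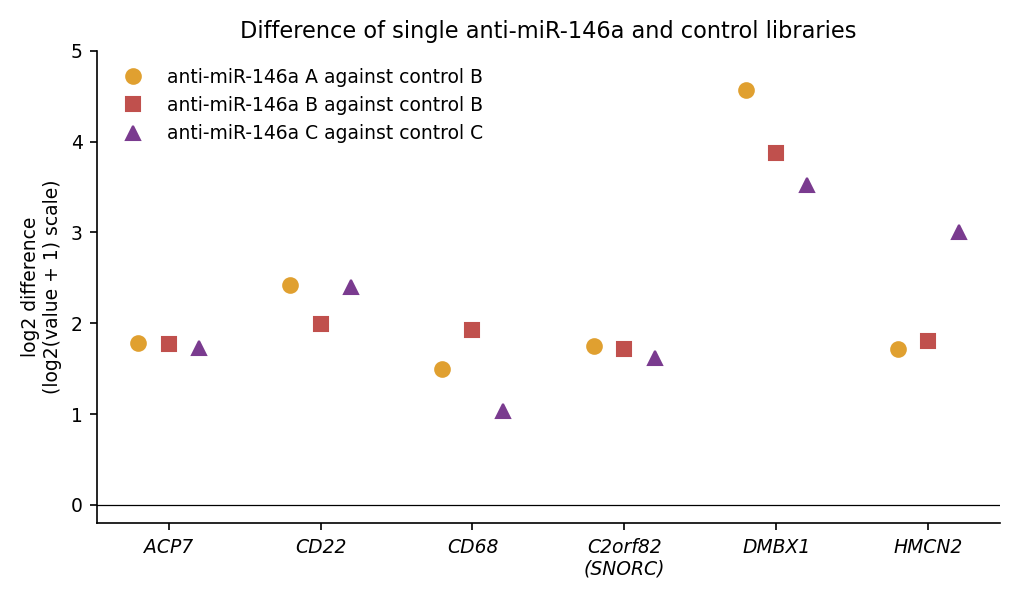
Log2 difference on the log2(value + 1) scale (y axis) of single libraries for each of the 6 genes, with anti-miR-146a A and B set against control B and anti-miR-146a C against control C. The 3 points of ACP7 and of C2orf82 nearly coincide, while HMCN2 lies at 3.01 for the C libraries against 1.72 and 1.81 for A and B.

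A contrast on which the 6 genes were not chosen is that of the C libraries against the A and B libraries, which stand apart in this series. HRAS, a RAS family gene, showed the split, with 9631 and 10250 normalized reads in the C libraries, and 4265, 4008 and 3610 in anti-miR-146a A, anti-miR-146a B and control B. In limma with terms for the antagomir and for the C libraries, 1866 of 6317 genes (29.5%) passed an adjusted p of 0.05, 1089 higher and 777 lower in the C libraries. Of the 6 genes, only HMCN2 passed, and nothing about the 6 genes as a set is read from this count.

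HMCN2 had 217 and 26.1 normalized reads in anti-miR-146a C and control C, against 74.6, 79.4 and 22.0 in anti-miR-146a A, anti-miR-146a B and control B. Its log2 difference for the C libraries was 0.95 (SE 0.24, limma, adjusted p 0.00802), with the C library higher in both groups. The call rested on 1 library, since without anti-miR-146a C the log2 difference was 0.24 (limma, adjusted p 0.664).

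ACP7 (log2 difference 0.50, SE 0.20, limma adjusted p 0.0714) and CD22 (0.58, SE 0.25, adjusted p 0.0892) did not pass for the C libraries. Neither did DMBX1 (0.55, SE 0.52, adjusted p 0.463), CD68 (0.23, SE 0.36, adjusted p 0.672) or C2orf82 (0.16, SE 0.20, adjusted p 0.572). The direction for CD68 turned when either control library was left out (log2 difference -0.0538).

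The annotation around the 6 genes bears on what their reads can show. In GENCODE 29 (GRCh38) ACP7 lies at chr19:39083913-39111493, CD22 at chr19:35319261-35347355, CD68 at chr17:7579467-7582113 and C2orf82 at chr2:232857270-232878708. DMBX1 lies at chr1:46506996-46514226 and HMCN2 at chr9:130265882-130434123. All are protein-coding and on the plus strand. ACP7, DMBX1 and HMCN2 share no exonic base with another annotated gene, and CD22 shares 0.666% of its exonic bases.

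CD68 shares 1789 of its 2189 exonic bases (81.7%) with AC016876.2, a processed transcript on the same strand. It shares 150 with AC016876.1 on the opposite strand, some of them among the 1789. This leaves 311 bases, or 14.2%, that belong to CD68 alone. Counters that discard reads lying in several genes would keep only reads from that remainder, and neither the counter nor its strand setting is given in the sources used here. The level of CD68 is therefore uncertain, and the part of this overlap in its difference was not tested. The antisense gene AC016876.1 (AC113189.5 in the deposited table) had 84.0, 112 and 87.0 normalized reads in the A, B and C anti-miR-146a libraries, against 110 and 94.2 in control B and C, so its groups overlapped. EIF4A1, which encodes a translation initiation helicase and ends 461 bases before CD68, had 238, 222 and 229 with anti-miR-146a, against 212 and 327 in controls.

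C2orf82 shares 186 bases (5.03%) with GIGYF2, a regulator of translation on the same strand whose bounds overlap its 5′ end. GIGYF2 had 3349, 3505 and 3381 normalized reads in the A, B and C anti-miR-146a libraries, against 3620 and 3519 in control B and C, which is lower in every anti-miR-146a library. The log2 difference of GIGYF2 was small, at -0.07 (SE 0.09), and 13.5% of all tested genes were lower without overlap. The part of this overlap in the difference of C2orf82 was not tested.

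**Figure D4:**
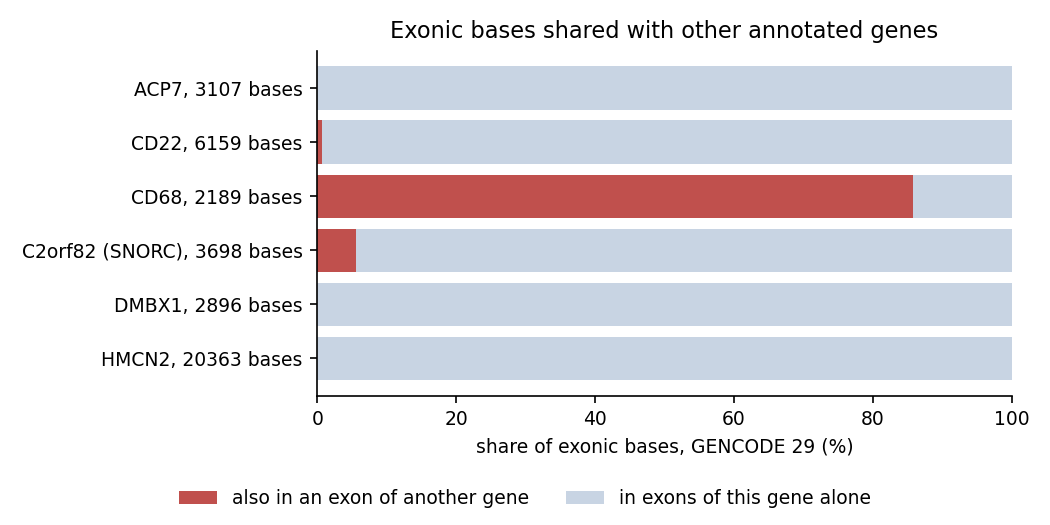
Share of the exonic bases of each of the 6 genes (x axis, percent, GENCODE 29) that also lie in an exon of another annotated gene on either strand. CD68 stands apart, with 14.2% of its exonic bases not shared, and C2orf82 keeps 94.3%.

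Other neighbours in the analysed rows were mostly silent or overlapped between groups. The nearest rows to CD22 are MAG, the Siglec of myelin, with 1, 0 and 2 reads with anti-miR-146a, against 0 and 1 in controls, and the fatty acid receptor gene FFAR1, with 2, 0 and 3 reads, against 0 and 0. FBXO27, an F-box gene 51.1 kb upstream of ACP7, had 45.3, 60.2 and 46.5 normalized reads with anti-miR-146a, against 56.3 and 30.8 in controls, and the row downstream, CTC-218B8.3, had none in any library. The rows on either side of DMBX1, FAAHP1 and MKNK1-AS1, had at most 2 reads in any library. For C2orf82 the next row downstream, the sialidase gene NEU2, had 2 reads in anti-miR-146a A and none elsewhere.

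Both rows beside HMCN2 were expressed. GPR107, 126 kb upstream, had 4215, 4176 and 4416 normalized reads with anti-miR-146a, against 4041 and 4594 in controls. ASS1, the argininosuccinate synthase gene 10.8 kb downstream, had 242, 255 and 427 with anti-miR-146a, against 218 and 421 in controls. ASS1 was higher in the C libraries of both groups (log2 difference 0.85, limma, adjusted p 3.49e-05). HMCN2 had 217 normalized reads in anti-miR-146a C, while control C at 26.1 lay little above control B at 22.0.

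The 250 bases before the RefSeq start are shown for the gene that was nearly absent in controls and for the gene whose libraries differed most, as windows that lie outside the GENCODE 29 bounds of both genes. Capitals mark matches to the motifs listed in the next paragraph (GRCh38.p14, plus strand).
DMBX1 (chr1:46489586-46489835): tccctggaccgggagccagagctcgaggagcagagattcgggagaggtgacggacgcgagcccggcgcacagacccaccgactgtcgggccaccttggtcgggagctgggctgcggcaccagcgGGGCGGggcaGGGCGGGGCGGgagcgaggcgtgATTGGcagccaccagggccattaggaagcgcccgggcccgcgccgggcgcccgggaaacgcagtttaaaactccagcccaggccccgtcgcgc
HMCN2 (chr9:130265510-130265759): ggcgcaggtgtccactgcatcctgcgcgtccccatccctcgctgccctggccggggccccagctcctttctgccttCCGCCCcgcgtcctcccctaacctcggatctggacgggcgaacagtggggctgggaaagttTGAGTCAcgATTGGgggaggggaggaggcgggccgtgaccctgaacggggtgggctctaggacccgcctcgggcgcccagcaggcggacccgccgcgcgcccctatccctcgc

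The motifs searched on both strands were TGANTCA (AP-1), GGAAGT (ETS core), GGGCGG (GC box), TATAAA (the core of the TATA box) and CCAAT, none of which contains another. DMBX1 held 3 GC boxes, at 126, 116 and 111 bases before the start (positions -126, -116 and -111), and a CCAAT box on the minus strand. HMCN2 held an AP-1 match at position -113, a GC box and a CCAAT box on the minus strand. Of the other windows, CD68 held an AP-1 match at -100 and an ETS core at -65, ACP7 held 2 GC boxes and CD22 1 CCAAT box. C2orf82 has 7 RefSeq starts, all downstream of its GENCODE start, with different matches. Among 35116 RefSeq promoter windows of this length, 6.57% held the AP-1 motif, 19.5% the ETS core, 42.6% a GC box, 10.7% a TATA box and 32% a CCAAT box. No motif was found in a window of each of the 6 genes. The RefSeq start of DMBX1 lies at position -17160 relative to its GENCODE 29 start. The GC content was 73.2% for DMBX1 and ACP7, 72.0% for HMCN2, 52.8% for CD22 and 51.6% for CD68, beside a median of 58.0% over all windows.

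Several of the 6 genes are markers of other cell types, and the remaining markers of those types are set beside them. The lists were drawn up with earlier results of these data known. A listed gene without a row was not analysed here, which does not mean that it was silent in these cells. The counts and medians below include whichever of the 6 genes a list holds, and that gene was chosen for being higher. Of 23 listed B cell markers 19 had a row and 4 were tested, with 2 higher and 2 lower. Their median log2 difference was 0.36 and none passed the threshold in limma. CD22 is 1 of the 2 higher. The log2 differences of the other tested members were 0.81 for CD72, -0.09 for EBF1 and -0.27 for FCRLA. CD79A, a chain of the B cell receptor, had 7.55, 5.48 and 2.02 normalized reads in the A, B and C anti-miR-146a libraries, against 6.68 and 10.3 in controls. Its partner chain CD79B had 2.83, 4.56 and 10.1, against 1.91 and 4.66 in controls, and the kinase gene BLK 3.78, 7.30 and 14.2, against 3.82 and 7.46. Groups overlapped for all 3 genes, with means lower for CD79A and higher for CD79B and BLK with anti-miR-146a. Without CD22 the list summed to 225 to 260 normalized reads with anti-miR-146a and 229 to 251 in controls, and CD38, CR2 and FCRL1 were at 0 in every library. CD72, a B cell inhibitory receptor, was the other tested member without overlap, with 73.6, 75.8 and 43.5 with anti-miR-146a, against 43.0 and 28.9 in controls. Of the members too low to be tested, IKZF3, a lymphocyte transcription factor, was lower without overlap, at 0.944, 4.56 and 5.06 with anti-miR-146a, against 5.73 and 17.7 in controls, as was BANK1 at no more than 2 reads in any library. The groups of CD72 were separated by little, as its C library lay just above control B. The transcription factor EBF1 was the most abundant tested member, at 107, 108 and 113 with anti-miR-146a, against 152 and 89.6 in controls.

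Of 25 listed macrophage and monocyte markers 18 had a row and 5 were tested, 3 higher (CD68 among them) and 2 lower. Their median log2 difference was 0.12 and none passed the threshold. CD14, the lipopolysaccharide co-receptor, had 17.0, 15.5 and 15.2 normalized reads with anti-miR-146a, against 17.2 and 15.9 in controls. CSF1R, the receptor that macrophages need for survival, had 10.4, 15.5 and 11.1, against 19.1 and 8.40 in controls. The groups overlapped for both. FCER1G, an Fc receptor signalling chain, had 19.8, 11.9 and 12.1, against 6.68 and 10.3 in controls, and was the other tested member without overlap. Among members too low to be tested, CD74, CD209 and C1QA were higher without overlap. CD74, the invariant chain, had 4.72, 3.65 and 3.03 with anti-miR-146a, against 1.91 and 1.87 in controls, while CD209 had 3, 2 and 5 reads, against 1 and 0, and C1QA 1, 1 and 2 reads, against 0 and 0. CD163, a scavenger receptor of macrophages, overlapped, with 5.66, 5.48 and 30.3 with anti-miR-146a, against 3.82 and 8.40 in controls. CD4, also present on monocytes, was the most abundant, at 184, 190 and 243 with anti-miR-146a, against 142 and 249 in controls. Without CD68 the list summed to 249 to 327 with anti-miR-146a and 198 to 299 in controls, with FCGR1A and HLA-DRA at 0 in every library. Of the 15 rows for markers of T cells and other immune cells none was tested, and they summed to 11.9 to 29.3 with anti-miR-146a and 19.1 to 25.2 in controls. Among them CD7 was lower without overlap, at 1.89, 1.83 and 6.07 with anti-miR-146a, against 7.64 and 13.1 in controls. GZMB was too, at no more than 1 read in any library, and no row of this list was higher without overlap.

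Relatives of the 6 genes were compared in the same way. Among 9 Siglec rows CD22 alone was tested, and the other 8 summed to 1.83 to 4.05 normalized reads with anti-miR-146a and 0.954 to 1.87 in controls. Of 10 phosphatase rows 7 were tested, 5 higher and 2 lower, with a median log2 difference of 0.21. The purple acid phosphatase ACP5 had 69.9, 50.2 and 97.1 with anti-miR-146a, against 37.2 and 97.0 in controls, so its groups overlapped where those of ACP7 did not. ACP1, a cytosolic phosphatase, was lower without overlap, at 1032, 1059 and 1299 with anti-miR-146a, against 1417 and 1390 in controls. ACP2, the lysosomal acid phosphatase, had 589, 620 and 562, against 544 and 588 in controls.

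HMCN1, the closest relative of HMCN2, had 134, 164 and 137 normalized reads with anti-miR-146a, against 130 and 145 in controls. Of the 15 tested hemicentin, fibulin and related matrix genes 12 were higher and 3 lower, with a median log2 difference of 0.07. AGRN, the heparan sulphate proteoglycan agrin, was higher without overlap, at 4538, 4624 and 4894, against 3738 and 4420 in controls. EFEMP2 was too, by a log2 difference of 0.09 (SE 0.10), and EGFLAM was lower, by a log2 difference of -0.57 (SE 0.34). The fibrillin gene FBN1 was the most abundant, at 8482, 8864 and 9390, against 7440 and 10184 in controls.

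Of 19 cartilage rows 7 were tested, 4 higher and 3 lower, with a median log2 difference of 0.0006. COL10A1, the collagen of hypertrophic cartilage, was the most abundant, with 99.1, 121 and 645 normalized reads in the A, B and C anti-miR-146a libraries, against 153 and 681 in control B and C. It was higher in the C libraries (log2 difference 2.38, limma, adjusted p 1.35e-08), a contrast that C2orf82 did not pass. COL11A2 had 27.4, 40.2 and 85.0, against 28.6 and 71.8 in controls. Of the members too low to be tested, COL2A1 and IHH were higher without overlap. COL2A1, the main collagen of cartilage, had 2.83, 3.65 and 5.06, against 1.91 and 0.933 in controls. IHH had 3.78, 2.74 and 4.05, against 0.954 and 1.87. The proteoglycan gene ACAN overlapped, at 4.72, 1.83 and 7.08, against 2.86 and 0. COL9A2 was lower without overlap, at 11.3, 13.7 and 6.07, against 18.1 and 14.9 in controls.

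Of 20 rows for paired-class and neural homeobox genes 4 were tested, 3 higher and 1 lower, with a median log2 difference of 0.18. DLX2, a forebrain and branchial arch factor, had 68.9, 71.2 and 58.7 normalized reads with anti-miR-146a, against 86.9 and 42.0 in controls, and DLX1 had 18.9, 37.4 and 20.2, against 38.2 and 17.7. DMBX1 was the 1 member whose groups did not overlap among those tested. The related head genes GSC and HESX1 had at most 3 reads in any library. All 19 lysosomal membrane and enzyme genes were tested, 11 higher and 8 lower, with a median log2 difference of 0.04. CTSB, the protease cathepsin B, had 28041, 28359 and 39162 with anti-miR-146a, against 25795 and 39448 in controls, and CD63 had 13352, 14441 and 16751, against 14735 and 17377. GAA, the acid alpha-glucosidase gene, was higher without overlap by a log2 difference of 0.20 (SE 0.11), and ARSA, the arylsulfatase A gene, by 0.19 (SE 0.11).

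Fibroblast markers were abundant in every library. FN1, which encodes fibronectin, had 77742, 85239 and 91353 normalized reads with anti-miR-146a, against 71833 and 97771 in controls, and COL6A3 had 56535, 53868 and 60489, against 46286 and 66456. Of the 18 fibroblast markers tested 10 were higher and 8 lower, with a median log2 difference of 0.01. Without overlap, DCN was higher by 0.14 (SE 0.10) and FAP was lower, by a log2 difference of -0.23 (SE 0.13). CDH1, the epithelial cadherin, had at most 1 read in any library. Epithelial markers had 2 tested members. The epithelial factor ELF3 was lower without overlap, at 21.7, 17.3 and 6.07 with anti-miR-146a, against 35.3 and 22.4 in controls. CLDN4 overlapped, at 66.1, 70.3 and 43.5, against 55.4 and 43.8. Of the members too low to be tested, EPCAM and CLDN7 were lower without overlap.

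Of 9 endothelial markers tested 2 were higher and 7 lower, with a median log2 difference of -0.15, and CDH5, the endothelial cadherin, had between 4.72 and 9.10 normalized reads with anti-miR-146a, against 5.60 and 5.73 in controls. ENG and ESM1 were the most abundant of them, with log2 differences of 0.06 (SE 0.19) and -0.68 (SE 0.71), and CLEC14A was lower without overlap (-0.49, SE 0.32). Of 8 muscle and neuronal markers tested 5 were higher and 3 lower, with a median of 0.19. The glutamate receptor gene GRIN1 was higher without overlap, at 7.55, 10.0 and 26.3, against 4.77 and 6.53 in controls, as were ENO2 and DLG4, each by a log2 difference of 0.19. CKM, the muscle creatine kinase gene, had the largest difference of these tested markers (1.84, SE 0.87), larger than those of ACP7, C2orf82 and CD68, with groups that overlapped, at 4.72, 11.0 and 30.3 with anti-miR-146a, against 0.954 and 5.60 in controls. Of the muscle and neuronal members too low to be tested, DES was lower without overlap, at 0.944, 1.83 and 2.02 with anti-miR-146a, against 4.77 and 4.66 in controls. ACTA1 was higher without overlap, at 2.83, 2.74 and 4.05, against 0 and 1.87 in controls. In none of the 13 lists did a gene pass the threshold in limma for the antagomir, where 0% of all tested genes passed.

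**Figure D5:**
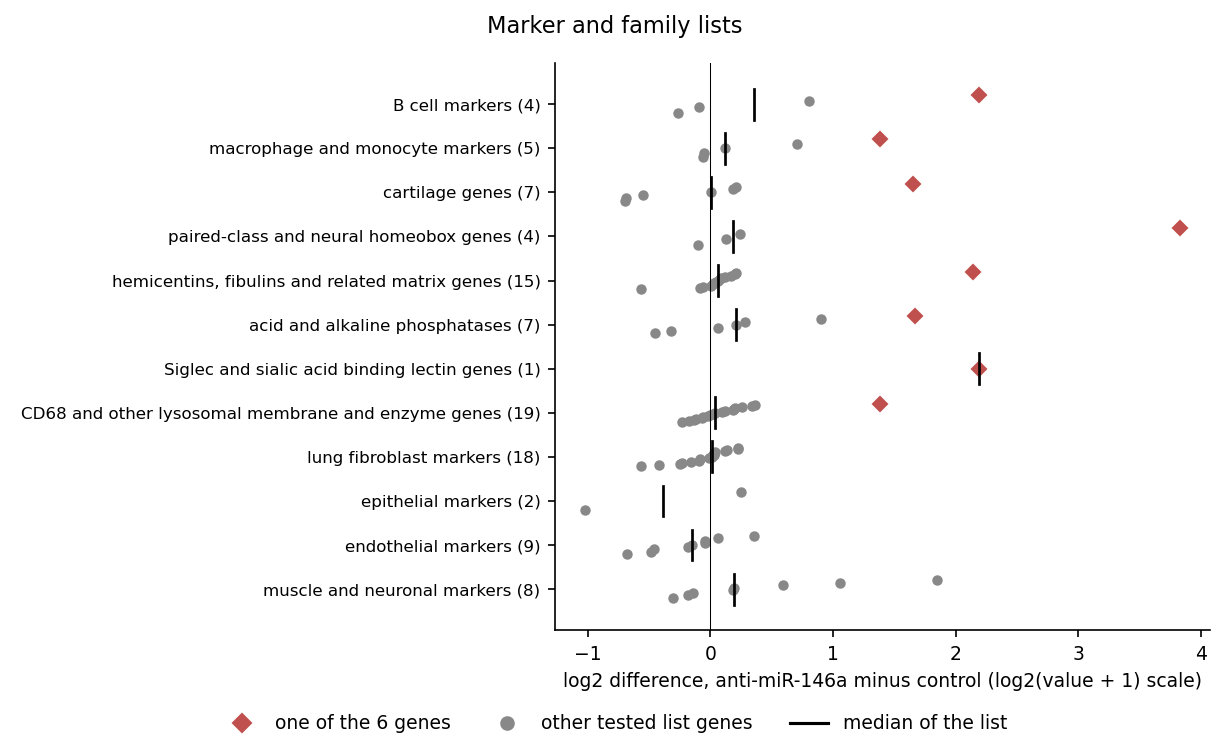
Log2 difference of anti-miR-146a minus control (x axis) for the tested members of each list (rows, with the number tested), the 6 genes as red diamonds and the median as a black line. The medians of lists with at least 3 tested members lie between -0.15 and 0.36, with the 6 genes included in them. The 6 genes lie to the right of the other members in every list that holds 1 of them.

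The 6 genes had similar profiles over the 5 libraries. Pearson correlations of their log2(value + 1) values between pairs ranged from 0.8445 (CD68 and HMCN2) to 0.9925 (C2orf82 and DMBX1). This is a description over 5 libraries that share the antagomir difference on which the genes were chosen. The tested genes most like each, by the same measure, were mostly more abundant genes with smaller differences. For C2orf82 they were HEMK1 (r = 0.9995), AC007773.2 and ATXN7L1, and HEMK1 had 718, 718 and 732 normalized reads with anti-miR-146a, against 467 and 487 in controls. For DMBX1 they were CTD-2619J13.14, FIG4 and FBXO42, the first with 547, 522 and 540, against 393 and 423. For ACP7 they were COMMD3, CTD-3126B10.2 and C11orf1, for CD22 AC010761.6, BIVM and AC009120.11, for CD68 ELK1, AC003002.6 and AP000704.5, and for HMCN2 AC008063.2, ANKRD33B and C1orf112. Between 5 and 19 tested genes reached an r of at least 0.99 with each of the 6 genes, fewest for HMCN2.

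The labels do not state whether each library is a culture of its own, so the p-values rest on a spread among 5 libraries that could be technical. The rows analysed held 8430859, 8748287 and 8500545 reads in anti-miR-146a libraries A to C, and 8556206 and 9283950 in control B and C, which are not full depths. The column letters tie each column to its group and not to a numbered sample, and the harvest time is given as 24 after transfection with no unit. Intervals and floors cover counting error only, since reads without molecular identifiers are not independent molecules.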

How the data were processed

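RNA sequencing of 5 IMR90 libraries was analysed, 3 with an antagomir against miR-146a and 2 with a control antagomir. Reads were trimmed with Trimmomatic 0.35 and aligned with STAR 2.5.1b to GRCh38, and DESeq2 1.22.2 was used, per the submitters' processing notes. Neither the counter, its strand setting nor the annotation is given in the sources used here. Of the 17390 rows with a GENCODE 29 identifier, all have bounds identical to GENCODE 29. The deposited signal is the normalized read count per gene, meaning counts divided by a size factor per library, from which whole reads were recovered within 1e-06. The fold change in the authors' deposited table is a linear ratio. P-values deposited by the authors were not used for tests.

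Values were tested as log2(value + 1) with limma 3.58.1 in R 4.3.3, over 6317 genes with at least 10 normalized reads in at least 2 libraries, with Benjamini-Hochberg adjustment over all of them. The antagomir was fitted alone, and the C libraries with a term for the antagomir. EdgeR 4.0.16 (quasi-likelihood) and DESeq2 1.42.0 on recovered reads, other pseudocounts and filters, a block for the column letter and leaving out each library were alternatives. Fits with terms for the antagomir and the C libraries were tested on simulated data, and the fit of the antagomir alone was not. Named genes were the 6 genes, their nearest rows, the 3 tested genes most correlated with each, and in each list the 2 most abundant tested genes and up to 4 whose groups did not overlap, and a few defining markers were named after their values were seen. Some list genes are not reported here. The 6 genes and the lists were chosen with earlier results of these data known. Sequences are from RefSeq (GRCh38.p14) and GENCODE 29.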

Additional observations from a re-analysis of the deposited data

How the results depend on the processing

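The log2 differences of the 6 genes for the antagomir lay between 1.06 and 5.87 over the alternatives run, and their sign was fixed by how the genes were chosen. Their median ranged from 1.63 to 2.10 with single libraries left out. The number of genes called for the antagomir was 0, against 48 with DESeq2, 636 with the column letter as a replicate block, 975 with a term for the C libraries, and 0 to 12 with single libraries left out (12 without anti-miR-146a C). Only 2 letters are shared between groups, so the block is not an established pairing. For the C libraries 1866 genes were called, against 1180 with DESeq2, 826 with no filter and 692 with no antagomir term. The 1 of the 6 genes called there, HMCN2, was lost with no filter (0 called, adjusted p 0.14), with no antagomir term (0 called, log2 difference 0.57, adjusted p 0.722) and without anti-miR-146a C, so that 0 to 1 were called with single libraries left out. The log2 difference of CD68 for the C libraries turned to -0.0538 when control B or control C was left out (range -0.0538 to 0.62) and to -0.00284 with no antagomir term, where C2orf82 turned to -0.12 and DMBX1 to -0.10. The causes were not tested. With a filter of 50, CD68 and DMBX1 could not be tested.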
